A study of Mus musculus with 2 samples.

Results

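The genes described here are 33 members of the hypoxia response and of glycolysis, given as a list of symbols, and all 33 were rows of both expression tables, which list 17139 genes each. They fell into 16 members that take up glucose, break it down to lactate or release the lactate, called the glycolysis members below, and 17 hypoxia-response members that serve other functions. They were measured by RNA sequencing of single cells in droplets, applied to endothelial cells (ECs), sorted as live CD45- CD31+ cells, from subcutaneous tumours of the Lewis lung carcinoma (LLC) line in adult c57bl/6 mice. The tumour of 1 mouse had been injected with PBS and that of another with cGAMP in PBS, the cyclic dinucleotide that binds STING, and the methods place the sampling on the day after the injection. The comparison asks how these genes differed between ECs of an injected tumour with and without the STING agonist. With 1 library per condition, the treatment cannot be told apart from the mouse or the library, no test was made, and every interval given is a 95% interval that covers counting error only.

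When oxygen falls, the prolyl hydroxylases that mark the HIF alpha subunits for destruction slow down, HIF alpha pairs with ARNT, and the pair binds short DNA elements near genes for glucose uptake, glycolysis, lactate release, mitochondrial pruning, collagen modification and angiogenesis. Several targets, among them Egln3, Egln1 and Bnip3, feed back on oxygen sensing or on oxygen use. ECs are known to make most of their ATP by glycolysis even where oxygen is present, and sprouting tip cells are known for a high glycolytic rate that depends on Pfkfb3, so the enzymes are abundant in these cells at all times and the hypoxia-response genes are layered on top of them.

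Levels are UMIs (unique molecular identifiers, each standing for 1 captured mRNA molecule) summed over the ECs of a library and scaled to CPM, the count in every 1000000 UMIs of the library. Because 1 UMI is counted at the 3' end of a molecule whatever its length, CPM can be set side by side between genes. The PBS library held 2517 ECs at a median of 29780 UMIs and the cGAMP library 1340 ECs at a median of 41177.5 UMIs, with 4.49% and 2.87% mitochondrial UMIs in the median cell. The libraries shared 1 cell barcode. In the PBS and cGAMP libraries 7 endothelial markers summed to 4322 and 4853 CPM, the 9 leucocyte markers that had a row to 16.7 and 48.4 CPM, and the 4 epithelial markers that had a row to 2.15 and 0.395 CPM. All 9 leucocyte markers had UMIs in both libraries, led by Cd68 and Lyz2, and Epcam and Krt19 were at 0 in the cGAMP library. Depth, the mitochondrial share and leucocyte markers thus moved with the condition, and their part in the differences below was not tested. Aldoa, Gapdh, Pgk1, Pgam1, Ldha and Bnip3l have pseudogenes named after them in the mouse annotation, and their levels are uncertain where reads were shared with these copies.

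The HIF complex recognises the core letters ACGTG or GCGTG. In RefSeq promoter windows of GRCm38.p6, which run from 250 bases before to 50 bases after each annotated start, 28 of the 31 members with an entry (90.3%) held at least 1 of these cores on either strand, against 70.1% of 7659 genes that reached 5 CPM in either of the libraries and 46.7% of all 27025 genes in the table. ACGTG, with or without GCGTG, was present for 74.2% of members and 30.6% of the expressed genes. GCGTG, with or without ACGTG, was present for 64.5% and 58.3%. Counted per window, 78.7% of 47 member windows and 63.8% of 9784 expressed windows held a core. Bnip3l and Ndrg1 had no entry. A match is only a match of letters. The 150 bases before the start of 5 members that were among the most concentrated in the EC cluster described below are shown for context, 5' to 3' on the strand of the gene, with every match in capitals. The cores read CACGT or CACGC where they lie on the other strand, and the palindrome CACGTG holds overlapping matches on both strands.
Bnip3, chr7:138909507-138909656, minus strand: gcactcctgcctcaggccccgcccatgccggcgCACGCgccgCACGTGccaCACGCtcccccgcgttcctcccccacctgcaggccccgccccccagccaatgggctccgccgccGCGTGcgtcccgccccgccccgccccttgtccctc
Egln3, chr12:54203875-54204024, minus strand: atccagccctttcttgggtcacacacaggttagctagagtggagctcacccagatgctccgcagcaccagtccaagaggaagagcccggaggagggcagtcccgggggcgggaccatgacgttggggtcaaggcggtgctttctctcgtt
Hk2, chr6:82774455-82774604, minus strand: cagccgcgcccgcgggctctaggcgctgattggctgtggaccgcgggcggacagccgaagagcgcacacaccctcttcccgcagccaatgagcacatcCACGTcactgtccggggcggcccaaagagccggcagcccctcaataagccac
Slc16a3, chr11:120948917-120949066, plus strand: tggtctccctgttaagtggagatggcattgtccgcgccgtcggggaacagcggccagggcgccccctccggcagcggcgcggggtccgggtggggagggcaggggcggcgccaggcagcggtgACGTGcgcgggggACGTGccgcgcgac
P4ha2, chr11:54100774-54100923, plus strand: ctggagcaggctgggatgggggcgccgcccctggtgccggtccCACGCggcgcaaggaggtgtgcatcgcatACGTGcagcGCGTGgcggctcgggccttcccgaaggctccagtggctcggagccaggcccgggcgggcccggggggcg
The stretch of Bnip3 holds 5 matches, that of P4ha2 3, that of Slc16a3 2 and that of Hk2 1. That of Egln3 holds none, and its single match lies farther upstream in the window.

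Most members were lower in the cGAMP library. Of the 31 members with at least 5 CPM in either library, 27 had a lower and 4 a higher level there, with a median log2 ratio of cGAMP over PBS of -0.45. Among all 9509 genes that passed the same minimum 5669 were lower and the median was -0.075. The signs of Aldoa, Gapdh, Pgk1, Pgam1 and Eno1, counted as lower, and of Ldha, counted as higher, turned under other settings. At least 1.5-fold lower were 8 members, namely Egln3, Mxi1, Ak4, Ankrd37, Pfkp, Egln1, Kdm3a and Ndrg1, of which Ak4 passed the minimum in the PBS library alone, and none was 1.5-fold higher. Among all genes tested, 7.41% were at least 1.5-fold lower and 4.53% at least 1.5-fold higher. Scaling by the median ratio of all genes left 5 members past the lower limit, and cells under 5% mitochondrial UMIs gave 13. The share of all genes under these settings was not computed. The hypoxia-response and the glycolysis members differed in their medians, but their single log2 ratios overlapped, from -2.19 to 0.19 and from -0.75 to 0.30. The 16 hypoxia-response members that passed had a median log2 ratio of -0.56, with 15 lower, and their summed level, over all 17, went from 1154 to 843 CPM, so that the log2 ratio was -0.45 (-0.47 to -0.44). The 15 glycolysis members that passed had a median of -0.069, close to that of all genes, and their summed level went from 7183 to 6859 CPM, with a log2 ratio of -0.067 that turned positive under other scalings. The glycolysis list was itself split. The median log2 ratio was -0.45 for Slc2a1 and Slc16a3 and -0.38 for the members tested from Hk1 to Tpi1. It was -0.062 for the abundant members from Gapdh to Ldha. The 16 glycolysis members made up 0.718% of all UMIs in the PBS and 0.686% in the cGAMP library, and the hypoxia-response members 0.115% and 0.0843%. Hk2 and Mgarp stayed under 5 CPM in both libraries and are in none of these counts and medians.

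**Figure D1:**
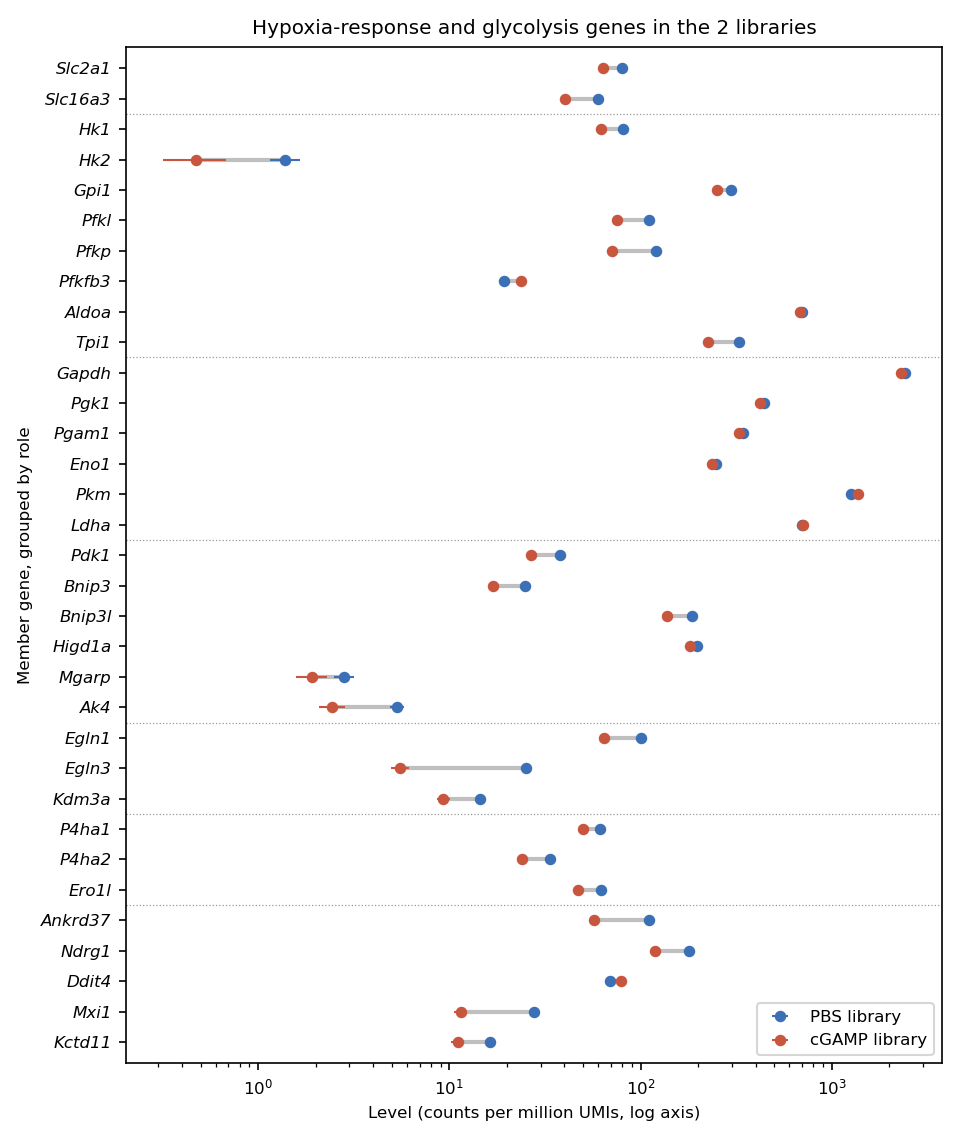
Level of each of the 33 members in CPM (log axis) in the PBS library (blue) and the cGAMP library (red), with exact Poisson 95% intervals, which are narrower than the points for most genes, and a grey line joining the 2 values. Egln3 has the longest line, from 25.3 to 5.54 CPM, and the points of Aldoa, Gapdh, Pgk1, Pgam1, Eno1 and Ldha nearly coincide.

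At the entry of the pathway, Slc2a1, the main glucose transporter of ECs, stood at 80.3 CPM (78.4 to 82.1) in the PBS and 63.3 CPM (61.4 to 65.3) in the cGAMP library, a log2 ratio of -0.34 (-0.40 to -0.29). At its exit, Slc16a3, which releases lactate from glycolytic cells, stood at 59.9 CPM (58.3 to 61.5) in the PBS and 40.4 CPM (38.8 to 42.0) in the cGAMP library, a log2 ratio of -0.57 (-0.64 to -0.50). Both transporters were lower in the cGAMP library, and in neither case did the counting intervals of the libraries overlap. Each was the dominant member of its pair. Slc2a1 held 97.8% of the UMIs of Slc2a1 and Slc2a3 in the PBS and 97.2% in the cGAMP library. Slc16a3 held 89.3% (88.5 to 90.0) of the UMIs of Slc16a1 and Slc16a3 in the PBS library and 82.6% (81.2 to 83.9) in the cGAMP library, where Slc16a1, a carrier that also works in the direction of uptake, was at 8.54 CPM against 7.21 CPM.

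The enzymes of the first stage, which spend ATP to prepare glucose for cleavage, were mostly lower in the cGAMP library. Hexokinase traps glucose in the cell, and its EC form here was Hk1, at 81.2 CPM (79.4 to 83.1) in the PBS and 62.3 CPM (60.4 to 64.3) in the cGAMP library, a log2 ratio of -0.38. Hk2, the hexokinase that hypoxia is known to induce, was rare, with 128 UMIs in all PBS cells (1.39 CPM) and 30 in all cGAMP cells (0.473 CPM), a log2 ratio of -1.55 (-2.18 to -0.97). Hk1 therefore held 97.7% and 98.6% of the hexokinase UMIs. Gpi1, which turns glucose phosphate into fructose phosphate, was at 296 and 252 CPM in the PBS and cGAMP libraries, a log2 ratio of -0.23. Phosphofructokinase, the committed step, was carried by Pfkl at 110.3 and 75.4 CPM and Pfkp at 119.8 and 71.0 CPM in the same order, with log2 ratios of -0.55 (-0.60 to -0.50) and -0.75 (-0.81 to -0.70), while Pfkm stayed at 6.06 and 4.83 CPM. Pfkp was thus the more abundant form in the PBS and Pfkl in the cGAMP library, with Pfkp at 50.7% (50.1 to 51.4) and 46.9% (45.9 to 47.9) of phosphofructokinase UMIs. Pfkfb3, which makes the activator of phosphofructokinase, went the other way, from 19.4 to 23.8 CPM, with log2 ratio 0.30 (0.20 to 0.40). Of the last enzymes of this stage, the aldolase Aldoa was at 699 and 684 CPM, a log2 ratio of -0.030, and the triose phosphate isomerase Tpi1 at 328 and 225 CPM, a log2 ratio of -0.55 (-0.57 to -0.52). Summed, the 8 members from Hk1 to Tpi1 had a log2 ratio of -0.25 (-0.26 to -0.24).

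The enzymes of the second stage, which harvest ATP and turn pyruvate into lactate, were the most abundant members and differed little between the libraries. Gapdh, which oxidises the triose phosphate, was the highest member, at 2402 CPM (2392 to 2412) in the PBS and 2306 CPM (2295 to 2318) in the cGAMP library. The pyruvate kinase Pkm followed at 1253 and 1365 CPM, and the lactate dehydrogenase Ldha at 702 and 704 CPM. The phosphoglycerate kinase Pgk1 was at 441 and 421 CPM, the mutase Pgam1 at 343 and 327 CPM and the enolase Eno1 at 248 and 237 CPM. The log2 ratios of these 6 enzymes lay between -0.069, for Pgam1, and 0.12, for Pkm, and their sum differed by -0.0072 (-0.014 to -0.00094). The signs of Gapdh, Pgk1, Pgam1, Eno1 and Ldha, and of Aldoa in the first stage, turned under other scalings, so none of them has a direction here, and Pkm stayed above 0 in all 10 alternatives. The counting intervals of Ldha in the 2 libraries overlapped. Ldha carried 99.5% of the lactate dehydrogenase UMIs in the PBS and 98.9% in the cGAMP library, where Ldhb, the heart-type form, was at 7.56 CPM against 3.75 CPM, a log2 ratio of 1.01 (0.81 to 1.22). Aldoa and Eno1 were likewise nearly the only forms of their enzymes, with Aldoc at 3 and 7 UMIs in all and Eno1 at 98.3% and 98.5% of enolase UMIs.

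Of the members that act on mitochondria, Pdk1, the kinase that keeps pyruvate out of the mitochondria by switching off pyruvate dehydrogenase, stood at 37.8 CPM (36.6 to 39.1) in the PBS and 26.6 CPM (25.3 to 27.9) in the cGAMP library, a log2 ratio of -0.51 (-0.59 to -0.43). Its share of the pyruvate dehydrogenase kinase UMIs went from 73.3% (72.0 to 74.6) to 62.6% (60.8 to 64.5), and that of Pdk4 from 4.33% (3.77 to 4.95) to 10.7% (9.57 to 11.9). The mitophagy receptor Bnip3 was at 24.7 and 16.9 CPM in the PBS and cGAMP libraries, a log2 ratio of -0.55 (-0.66 to -0.44), and its relative Bnip3l, at 186 and 137 CPM, was several times more abundant, with a log2 ratio of -0.45. The adenylate kinase Ak4 was at 5.33 CPM (4.87 to 5.83) in the PBS and 2.45 CPM (2.08 to 2.86) in the cGAMP library, a log2 ratio of -1.12 (-1.39 to -0.86). Higd1a, a small protein of the inner membrane that binds respiratory complexes, was at 197 and 181 CPM, a log2 ratio of -0.12. Mgarp, which helps place mitochondria in the cell, was at 2.82 and 1.91 CPM, from 260 and 121 UMIs. All 6 were lower in the whole cGAMP library, Higd1a by the least, and Higd1a was higher in the cGAMP cells of 5 of the 8 clusters described below.

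In the whole libraries the log2 ratio farthest from 0 among the 33 members was that of Egln3. This gene, an oxygen-dependent prolyl hydroxylase and known HIF target at chr12:54178981-54203860 on the minus strand (GENCODE vM21, GRCm38), stood at 25.3 CPM (24.3 to 26.4) in the PBS and 5.54 CPM (4.97 to 6.15) in the cGAMP library, 4.57-fold lower in the latter, a log2 ratio of -2.19 (-2.36 to -2.03). Egln1, the main oxygen sensor of most cells, stood at 101 CPM (98.6 to 103) in the PBS and 64.2 CPM (62.3 to 66.2) in the cGAMP library, a log2 ratio of -0.65 (-0.70 to -0.59). Egln2, which is not a member and is little affected by hypoxia in most cells, was at 44.5 and 44.3 CPM, a log2 ratio of -0.0069. The make-up of the family therefore differed, with Egln3 at 14.8% (14.3 to 15.4) of its UMIs in the PBS library and 4.86% (4.37 to 5.38) in the cGAMP library, and Egln2 at 26.1% (25.4 to 26.8) and 38.8% (37.7 to 40.0). Kdm3a, an oxygen-dependent histone demethylase, was at 14.6 and 9.31 CPM, a log2 ratio of -0.64 (-0.79 to -0.50).

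Of the members that modify secreted proteins, the collagen prolyl hydroxylase subunits P4ha1 and P4ha2 were at 61.2 and 49.8 CPM and at 33.6 and 23.9 CPM in the PBS and cGAMP libraries, with log2 ratios of -0.30 and -0.49. Ero1l, the oxidase that drives disulphide formation in the endoplasmic reticulum, was at 61.7 and 47.3 CPM, a log2 ratio of -0.39. All 3 were lower in the cGAMP library and none by 1.5-fold. Of the members that act on growth and stress, Ankrd37, an ankyrin-repeat protein and early HIF target, was at 110.4 CPM (108 to 113) in the PBS and 57.3 CPM (55.5 to 59.2) in the cGAMP library, a log2 ratio of -0.95 (-1.001 to -0.89). Mxi1, which opposes MYC at shared DNA sites, was at 27.7 CPM (26.6 to 28.8) in the PBS and 11.5 CPM (10.6 to 12.3) in the cGAMP library, a log2 ratio of -1.27 (-1.40 to -1.15), and Myc itself was at 25.4 and 42.2 CPM, a log2 ratio of 0.73 (0.65 to 0.81). Ndrg1, a stress-response gene, was at 179 and 119 CPM, a log2 ratio of -0.60 that lies just past the 1.5-fold limit, and Kctd11, an adaptor of a ubiquitin ligase, at 16.4 and 11.05 CPM, a log2 ratio of -0.57 just short of it. Ddit4, an inhibitor of mTORC1 that glucocorticoids and other stresses induce as well as hypoxia, was the only hypoxia-response member with a higher level in the cGAMP library, at 69.2 CPM (67.5 to 70.9) in the PBS and 78.9 CPM (76.7 to 81.1) in the cGAMP library, a log2 ratio of 0.19 (0.14 to 0.24), which shrank to 0.0067 with the cluster proportions held equal.

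The share of cells in which a member was found was compared after each cell had been thinned to 5000 UMIs, which left out 70 PBS and 13 cGAMP cells. Gapdh was found in 99.8% of PBS cells and 99.8% of cGAMP cells and Ldha in 91.9% of PBS cells and 94.4% of cGAMP cells, whereas Egln3 was found in 7.23% (6.24 to 8.33) of PBS cells and 2.26% (1.53 to 3.21) of cGAMP cells and Mxi1 in 12.5% (11.2 to 13.9) of PBS cells and 4.97% (3.87 to 6.28) of cGAMP cells. For Ankrd37 the shares were 29.2% (27.4 to 31.1) of PBS cells and 15.4% (13.5 to 17.4) of cGAMP cells, for Pfkp 41.8% (39.8 to 43.8) of PBS cells and 26.5% (24.1 to 28.9) of cGAMP cells and for Egln1 37.8% (35.9 to 39.8) of PBS cells and 26.0% (23.7 to 28.4) of cGAMP cells. These 5 genes were among the 8 at least 1.5-fold lower in the same UMIs, so their lower cGAMP shares largely followed from that choice. Their intervals did not overlap, nor did those of Ak4 and Ndrg1, also among the 8. For Kdm3a they did, at 6.78% (5.82 to 7.85) of PBS cells and 4.90% (3.80 to 6.20) of cGAMP cells. Without thinning, Egln3 had a UMI in 22.0% and 9.78% of cells and Egln1 in 83.8% and 85.4%, at unequal depth, and these shares were not compared. As a measure of free RNA, the myeloid gene Lyz2, which ECs should lack, was found in 2.37% and 5.65% of thinned cells at the same depth. The cGAMP shares of Egln3, Ak4, Mgarp, Hk2, Kdm3a and Mxi1, at 0.301% to 4.97%, lay at or below that of Lyz2, and so did the PBS shares of Hk2 and Mgarp, at 0.695% and 1.19%, against that of Lyz2 in the PBS library. Over all cells of a library these shares alone could therefore not be told apart from free RNA, and the clusters below show where the UMIs of these genes lay.

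To see which ECs carried the members, cells were clustered without the members, without 32 further hypoxia genes and without genes that differed 2-fold between the libraries, so that the clusters rested on other genes. Of the 8 clusters, markers named 5, as proliferative, arterial, stalk-like (venous) and 2 tip-like clusters, 1 of which was led by Gal and Chga and 1 by Pgf and Ankrd1. The others are called by their leading genes, Ramp3 and Esm1, Ung and Hells, and Igfbp5 and Ctsh. The Igfbp5 and Ctsh cluster had 13 of 13 stalk-like markers raised, against 10 of 13 in the cluster named stalk-like, but none of them among its 10 leading genes, and the Ung and Hells cluster was led by genes of DNA replication. The Pgf and Ankrd1 cluster held 72 PBS cells (2.86%, 2.24 to 3.59) and 51 cGAMP cells (3.81%, 2.85 to 4.97), with 6 of 13 tip-like markers raised at least 2-fold, and 5 members, Bnip3, Mgarp, Egln3, Ero1l and Slc2a1, were among its 10 leading genes although no member had been used to form it. Pgf was the only tip-like marker among these leading genes, which also held the arterial marker Cxcl12. The tip-like markers Pgf and Apln are also on the list of further hypoxia genes, so the tip-like name rests in part on hypoxia genes. The Pgf and Ankrd1 cluster was singled out because its hypoxia-response sum was the highest of the 8 clusters in both libraries. A high level of members there is thus partly set by this choice. The values of this cluster are descriptions, since it was formed from the same cells and chosen on the members themselves.

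The hypoxia-response members summed to 4742 CPM in the Pgf and Ankrd1 cluster of the PBS library, and in the other clusters to between 845 CPM, in the Ung and Hells cluster, and 1429.9 CPM, in the Gal and Chga tip-like cluster. In the cGAMP library they summed to 2167 CPM in that cluster and to between 696 CPM, in the proliferative cluster, and 1089 CPM, again in the Gal and Chga tip-like cluster. The glycolysis members were also highest in these 2 clusters, but the order of the other clusters differed. Their sum was 17428 and 13466 CPM in the Pgf and Ankrd1 cluster of the PBS and cGAMP libraries, 8164 and 7930.0 CPM in the Gal and Chga tip-like cluster, and lowest in the stalk-like cluster, at 4388 CPM in the PBS library, and in the Igfbp5 and Ctsh cluster, at 5169 CPM in the cGAMP library. Arterial cells, at 4464 and 5431 CPM, lay near the lowest. The Pgf and Ankrd1 cluster held 2.56% of the PBS library's UMIs but 10.5% of its hypoxia-response UMIs, and 3.44% and 8.84% in the cGAMP library.

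**Figure D2:**
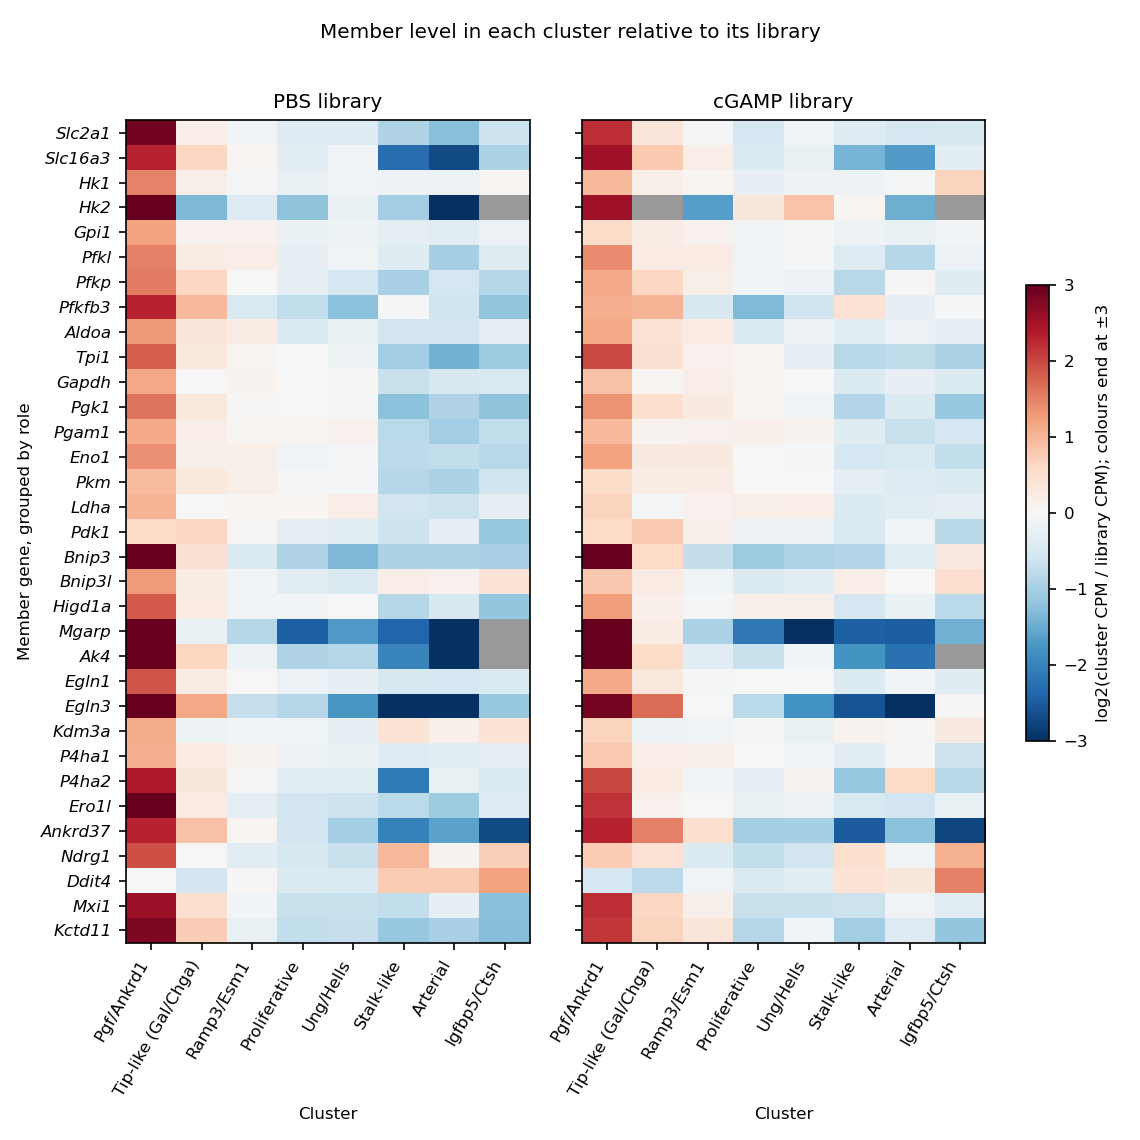
Level of each member in each of the 8 EC clusters relative to its level in the whole library, as log2 of the CPM ratio, with the PBS library on the left and the cGAMP library on the right. Red is above and blue below the library's level, colours end at 3 in either direction, and grey cells held no UMI. Nearly every row is reddest in the Pgf and Ankrd1 column, and Ddit4 is the row that is not red there.

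Of the 29 members with at least 5 CPM in the other cells of both libraries, 28 were higher in the Pgf and Ankrd1 cluster in both. Of all 9023 genes that passed the same minimum, 2214 were. At least 2-fold higher there in both libraries were 19 of these 29 members, against 2.04% of the 9023 genes. Because the cluster was chosen for its hypoxia-response sum, these counts describe it and test nothing. Hk2, Mgarp, Ak4 and Egln3 did not reach 5 CPM outside the cluster in both libraries and are given by their values alone. The most concentrated was Mgarp, at 66.6 CPM in the PBS cells of the cluster, 58.1-fold above the other cells, and at 36.2 CPM in the cGAMP cells, 52.8-fold above. These few cells held 60.4% and 65.3% of the Mgarp UMIs of their libraries. Bnip3 was at 284 and 165 CPM there, 15.8-fold and 14.2-fold above the other cells, Ak4 at 55.6 and 25.2 CPM, 13.9-fold and 15.4-fold, and Egln3 at 255 and 40.8 CPM, 13.2-fold and 9.54-fold. Of the glycolysis members Slc2a1 was at 601 and 292 CPM, 9.02-fold and 5.29-fold above the other cells, and Slc16a3 at 295 and 234 CPM, 5.48-fold and 6.97-fold. Tpi1 was 3.75-fold and 4.39-fold higher, and Pkm, the flattest glycolysis member in the PBS library, 1.94-fold and 1.49-fold. The transporters and Tpi1 were therefore more concentrated than the abundant enzymes of the second stage, which ranged from 1.94-fold to 3.24-fold in the PBS library and from 1.49-fold to 2.67-fold in the cGAMP library.

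Hk2, rare elsewhere, was concentrated in the PBS cells of this cluster. There it had 63 UMIs, 49.2% of those in the library, at 26.7 CPM (20.6 to 34.2), and its share of hexokinase UMIs was 10.4% (8.05 to 13.1) against 0.922% (0.712 to 1.17) in the other PBS cells. In the cGAMP cells of the cluster it had 6 UMIs, at 2.75 CPM (1.01 to 5.99), and a share of 2.16% (0.796 to 4.64) against 0.644% (0.413 to 0.956). Other families also had another make-up in these cells. P4ha2 was at 57.7% (54.0 to 61.3) of their joint UMIs in PBS cells and 52.7% (47.6 to 57.7) in cGAMP cells, against 33.4% and 30.6% in the other cells. Bnip3 was at 38.6% (36.3 to 40.9) and 40.9% (37.7 to 44.3) of the UMIs of Bnip3 and Bnip3l, against 9.08% and 8.04% in the other cells. Egln3 held 38.7% (36.3 to 41.2) of the Egln UMIs in PBS cells of the cluster and 17.4% (14.2 to 21.0) in cGAMP cells, against 12.2% and 3.90% in the other cells.

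**Figure D3:**
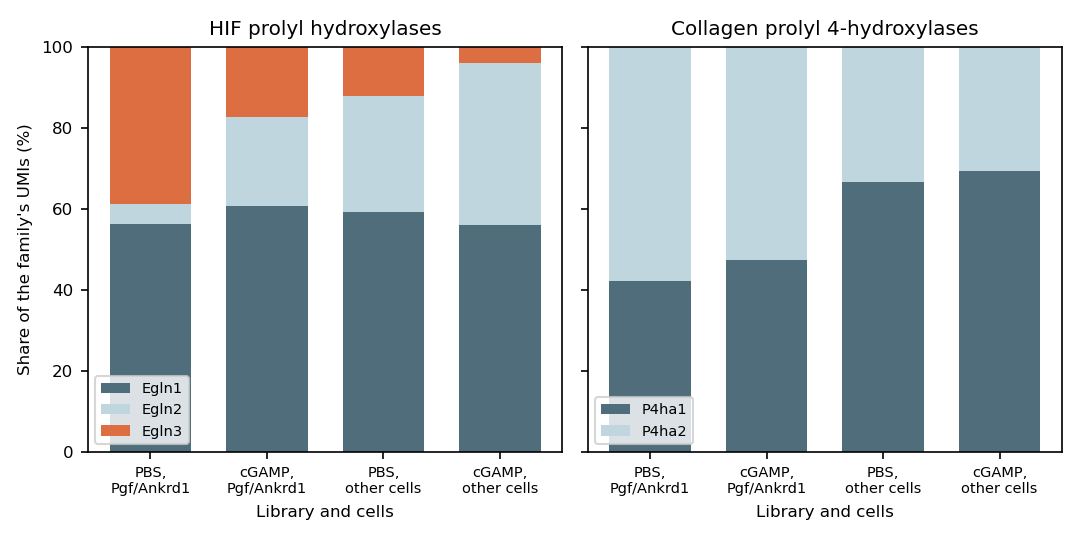
Share of each form in the UMIs of its enzyme family, in percent, for the HIF prolyl hydroxylases (left) and the 2 collagen prolyl hydroxylase subunits (right), in the Pgf and Ankrd1 cluster and the other cells of each library. The orange Egln3 segment is tallest in the PBS cells of the cluster, at 38.7%, and P4ha2 passes 50% in the cluster in both libraries.

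The Pgf and Ankrd1 pattern had exceptions. Ddit4 was at 69.6 and 55.5 CPM in that cluster and highest in the Igfbp5 and Ctsh cluster, at 161 and 225 CPM, with the stalk-like cluster at 118 and 105 CPM and the arterial cluster at 118 and 99.5 CPM. Ndrg1 was at 683 and 200.02 CPM in the Pgf and Ankrd1 cluster but also at 351 and 166 CPM in the stalk-like and 294 and 247 CPM in the Igfbp5 and Ctsh cluster, and in the cGAMP library the last was its highest. Pdk1 was highest in the Gal and Chga tip-like cluster, at 58.6 and 45.5 CPM, with 56.0 and 40.4 CPM in the Pgf and Ankrd1 cluster. Among members with at least 20 CPM in the PBS library, Egln3 and Slc16a3 had the widest gap between the Gal and Chga tip-like and the arterial cells of that library. Egln3 was at 56.4 and 17.6 CPM in the Gal and Chga tip-like cluster and at 0.675 and 0.172 CPM, from 6 UMIs and 1 UMI, in the arterial cluster, and Slc16a3 at 92.9 and 69.7 CPM and at 9.33 and 12.4 CPM. Pfkfb3, the activator known from sprouting, was second highest in the Gal and Chga tip-like cluster, at 37.8 and 48.5 CPM, after 95.5 and 50.5 CPM in the Pgf and Ankrd1 cluster.

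Within clusters, the difference between the libraries was widest in the Pgf and Ankrd1 cells. All 33 members had a lower level in the cGAMP cells of that cluster, 22 of them by at least 1.5-fold and none higher by as much, with a median log2 ratio of -0.89. Of these members, Hk2 passed the minimum of 5 CPM in the PBS cells of the cluster alone. Of all 9231 genes tested in the cluster 11.8% were at least 1.5-fold lower and 17.4% at least 1.5-fold higher, and the median of all genes was 0.068. The sum of the hypoxia-response members had a log2 ratio of -1.13 (-1.18 to -1.08) and that of the glycolysis members -0.37 (-0.39 to -0.35). Hk2 had the lowest log2 ratio there, -3.28 (-4.78 to -2.08), from few UMIs, followed by Egln3 at -2.64 (-2.98 to -2.32), Ndrg1 at -1.77 (-1.93 to -1.62) and Mxi1 at -1.63 (-1.94 to -1.32). Ero1l, at -1.43 (-1.59 to -1.28), differed far less in the whole library. Slc2a1, from 601 to 292 CPM, had a log2 ratio of -1.04 (-1.18 to -0.90). The second-stage enzymes, which differed little in the whole libraries, were all lower here, with log2 ratios from -0.36 for Ldha to -0.22 for Eno1. Only the interval of Ddit4, -0.33 (-0.68 to 0.021), reached above 0.

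The cells that make up this cluster were not alike in the 2 libraries. The hypoxia-response sum per cell had quartiles of 3475 and 5929 CPM in its PBS cells and of 1119 and 2894 CPM in its cGAMP cells, where the lowest cell, at 392 CPM, was below the median of the other cells. Leucocyte markers summed to 52.6 and 362 CPM in the cluster, against 13.9 to 21.6 and 33.8 to 46.1 CPM in the other clusters. A single cell in each library held most of these UMIs, with 82 of 124 in the PBS and 680 of 790 in the cGAMP cells. Without cells that held 10 or more leucocyte UMIs, 1 in each library, the median log2 ratio of the members within the cluster was -0.88. Of the members, 22 were then at least 1.5-fold lower, against 11.9% of all genes. Mural and fibroblast markers summed to 4.67 CPM in the PBS cells of the cluster, the lowest of the 8 clusters, and to 57.8 CPM in its cGAMP cells, the highest. In the latter 3 cells held 10 or more of these UMIs, and 1 of them held 73 of 126. Without these 3 cells the median log2 ratio of the members was -0.85, and 21 members were at least 1.5-fold lower, against 12.3% of all genes. The median cell of the cluster had 29636 UMIs and 3.27% mitochondrial UMIs in the PBS library, and 39224 and 2.33% in the cGAMP library, and the part of this in the difference was not tested. The cluster with the highest hypoxia-response sum depended on the clustering. At a resolution of 0.3 it held 837 PBS and 359 cGAMP cells, with a median member log2 ratio of -0.34. Clustering without integration gave 623 and 194 cells and -0.13. How many cells of the Pgf and Ankrd1 cluster lay in these larger clusters was not counted.

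In the other 7 clusters the hypoxia-response sum was also lower in the cGAMP cells, with log2 ratios from -0.50 in the stalk-like cluster to -0.15 in the Igfbp5 and Ctsh cluster. The glycolysis sum did not follow it. Its log2 ratio was 0.28 (0.26 to 0.30) in the arterial and 0.25 (0.23 to 0.27) in the stalk-like cluster, where the PBS cells had the lowest glycolysis sums, and between -0.059 and 0.044 in the remaining 5. Pkm went from 696 to 1138 CPM in stalk-like and from 645 to 1040.1 CPM in arterial cells, with log2 ratios of 0.71 (0.66 to 0.76) and 0.69 (0.64 to 0.74), and from 1567 to 1594 CPM in the Gal and Chga tip-like cells. The glycolysis sums of the clusters spanned 4388 to 17428 CPM in the PBS and 5169 to 13466 CPM in the cGAMP library. Pfkfb3 was higher in the cGAMP cells of 6 clusters, from 18.6 to 32.2 CPM in stalk-like cells and from 8.66 to 23.3 CPM, on 9 and 33 UMIs, in the Igfbp5 and Ctsh cluster. It was lower in the proliferative cluster, from 11.6 to 9.48 CPM, and in the Pgf and Ankrd1 cluster, from 95.5 to 50.5 CPM. Higd1a, lower in the whole cGAMP library, was higher in the cGAMP cells of 5 clusters, with intervals above 0 in 3 and below 0 in 2. Slc2a1, Slc16a3 and P4ha2, also lower in the whole library, were higher in 2, 3 and 2 clusters, with intervals above 0 in 1, 0 and 2. In contrast, 14 of the 33 members were lower in every cluster that gave a ratio. Of these, Bnip3l and Ndrg1 were lower with intervals below 0 in all 8 clusters. Gpi1, Pfkl, Pfkp, Pdk1, Egln1, Kdm3a, Ankrd37 and Mxi1 were lower in all 8, with intervals below 0 in 7. Egln3 was lower in the 7 clusters that gave a ratio, with intervals below 0 in 5. Hk2, Mgarp and Ak4 gave ratios in 4, 5 and 6 clusters, all lower, with intervals below 0 in 1, 1 and 4. The median of all genes was also below 0 in every cluster but the Pgf and Ankrd1 cluster. The share of all genes lower in every cluster was not computed. Mxi1 had log2 ratios from -1.63 to -1.03 in 7 clusters and of -0.33 (-1.58 to 0.93) in the Igfbp5 and Ctsh cluster, from 12 and 13 UMIs.

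**Figure D4:**
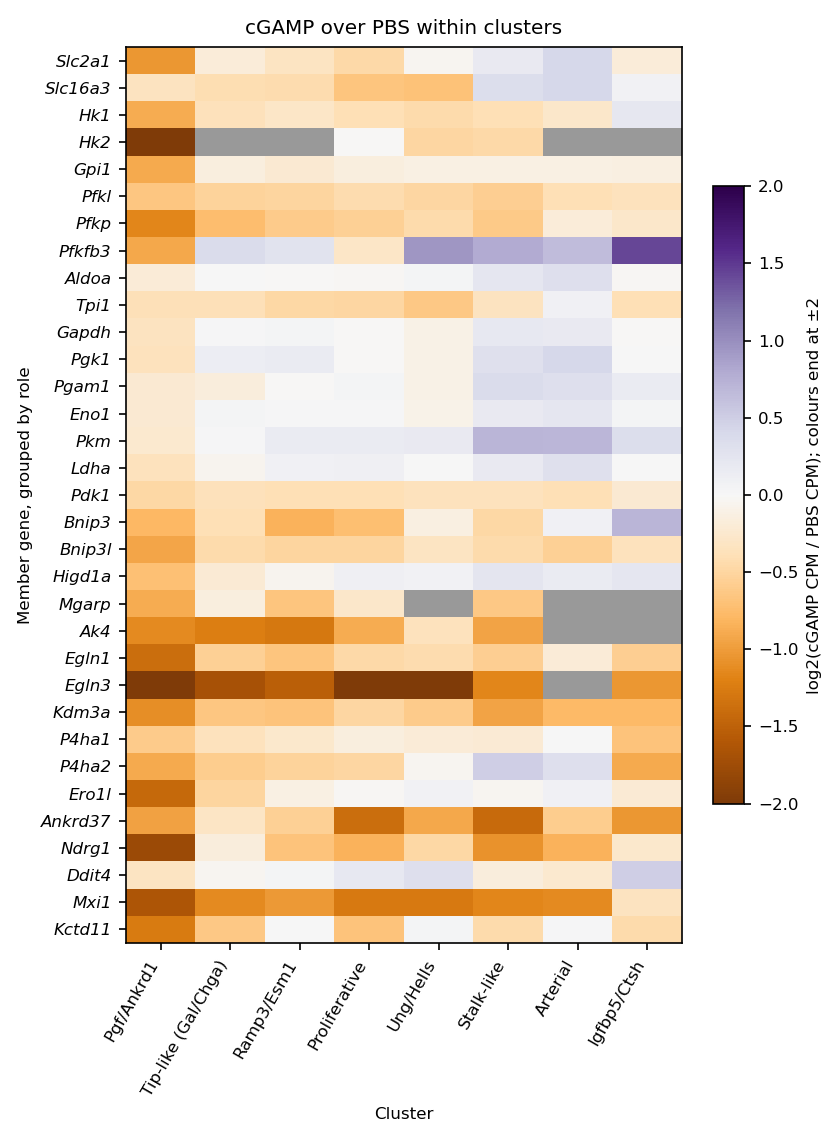
Log2 ratio of cGAMP over PBS CPM for each member within each of the 8 EC clusters. Purple is higher and orange lower in the cGAMP cells, colours end at 2 in either direction, and grey marks members with 3 or fewer UMIs on a side. The Pgf and Ankrd1 column holds no purple cell, the rows of Egln3 and Mxi1 are orange wherever a ratio is given, and Pkm and Pfkfb3 are purple in the stalk-like and arterial columns.

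Without any clusters, the spread of single cells showed the same contrast. Per 5000 UMIs, a cell held a median of 5 hypoxia-response UMIs in the PBS and 4 in the cGAMP library, with 95th percentiles of 13 and 9.70, 99th percentiles of 28 and 17 and highest cells at 84 and 37. At least 20 such UMIs were held by 57 of 2447 PBS cells (2.33%, 1.77 to 3.01) and 7 of 1327 cGAMP cells (0.528%, 0.212 to 1.08), and at least 10 by 287 of 2447 PBS cells (11.7%, 10.5 to 13.1) and 67 of 1327 cGAMP cells (5.05%, 3.93 to 6.37). The cGAMP library was thus lower at the centre and much lower in the upper tail. The glycolysis members had a median of 31 UMIs per 5000 in both libraries, with 99th percentiles of 99 and 83.7.

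Cells with more hypoxia-response UMIs had more of the glycolysis members, mostly at the top of the range. Ranked by hypoxia-response UMIs per 5000 and split into 10 bins of equal size, PBS cells had a glycolysis sum of 6393 CPM in the lowest bin, 7349 CPM in the next to highest and 12315 CPM in the highest, and cGAMP cells 6189, 7057 and 10324 CPM. Between the lowest and the highest bin Slc16a3 differed 6.36-fold in the PBS and 7.47-fold in the cGAMP library, Slc2a1 5.85-fold and 4.09-fold, Tpi1 3.18-fold and 3.41-fold, and Ldha 1.55-fold and 1.34-fold. Ldha and Pkm were the flattest of the enzymes in both libraries. The Pgf and Ankrd1 cluster supplied 25.8% of the PBS and 23.5% of the cGAMP cells of the highest bin, while cells of the proliferative cluster made up 29.4% of the lowest and 9.02% of the highest bin in the PBS library, and 16.5% and 3.03% in the cGAMP library. The Ung and Hells cluster, counted apart, made up 15.9% and 0.820% of these bins in the PBS and 12.0% and 1.52% in the cGAMP library. Median depth in the lowest and highest bins was 33434 and 31033 UMIs in the PBS and 39327 and 36191 UMIs in the cGAMP library.

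**Figure D5:**
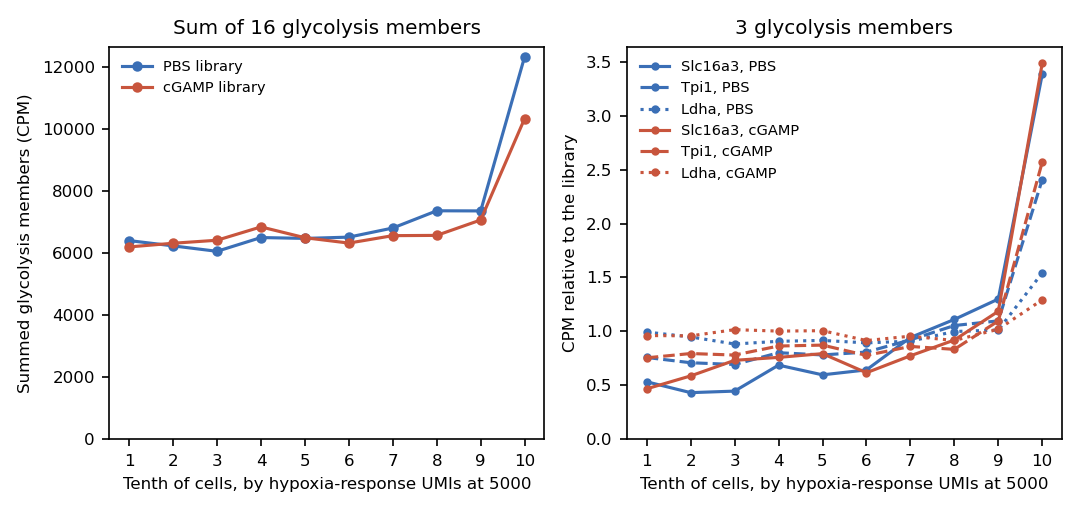
Left, the summed level of the 16 glycolysis members in CPM in 10 bins of the cells of each library, ranked by their hypoxia-response UMIs among 5000 drawn UMIs. Right, Slc16a3, Tpi1 and Ldha in the same bins, relative to their level in the whole library. The sum varies little up to the ninth bin, Slc16a3 climbs earlier, and all curves are steepest at the last bin, where the sum reaches 12315 CPM in the PBS and 10324 CPM in the cGAMP library.

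Over single cells, all of which share 1 library and the same thinned depth, the Spearman correlation of the glycolysis sum with the hypoxia-response sum was 0.23 over 2447 PBS cells and 0.15 over 1327 cGAMP cells. Without the Pgf and Ankrd1 cluster it was 0.16 and 0.087. In counts of a few UMIs per cell a correlation of this size is no finding, and the values are given as descriptions. Pairs of glycolysis members had a median correlation of 0.17 and 0.11 over 120 pairs, and pairs of hypoxia-response members 0.070 and 0.040 over 136 pairs. The highest pairs, by the lower of both libraries' values, joined abundant enzymes, with Gapdh and Pkm at 0.42 and 0.36 and Gapdh and Pgk1 at 0.40 and 0.34. Among hypoxia-response members, Bnip3 at 0.26 and 0.18 and Egln3 at 0.25 and 0.18 followed the sum of the others most, and Ddit4 was near 0, at -0.038 and 0.0042.

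Among 5381 genes outside the list with at least 20 CPM in both libraries, the 10 whose UMIs followed the hypoxia-response sum most closely over cells, ranked by the lower of the 2 libraries' correlations, were Pgf, Trp53i11, Adm, Tmsb4x, Ackr3, Esm1, Cdk2ap2, Cxcr4, Apln and Prss23. Pgf, the placental growth factor, led with 0.34 and 0.30 in the PBS and cGAMP libraries, and Adm, which encodes the vasodilator adrenomedullin, had 0.30 and 0.20. Trp53i11 was second with 0.26 and 0.24. The tip cell genes Esm1, Cxcr4 and Apln had 0.15 and 0.16, 0.20 and 0.15 and 0.20 and 0.15. Pgf, Adm and Apln are themselves on the list of further hypoxia genes. Of the 10 genes, 8 had a lower level in the cGAMP library, among them Cxcr4, at 84.7 and 39.8 CPM, and Esm1, at 332 and 202 CPM. The other 2, Ackr3 and Prss23, had a higher level, with log2 ratios of 0.090 and 0.17.

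The transcripts of the HIF system differed less than many of the members. The alpha subunit Hif1a stood at 275 CPM (272 to 278) in the PBS and 283 CPM (279 to 287) in the cGAMP library, a log2 ratio of 0.042 (0.015 to 0.070), and the alpha subunit Epas1, abundant in ECs, at 248 CPM (244 to 251) in the PBS and 191 CPM (187 to 194) in the cGAMP library, a log2 ratio of -0.38 (-0.41 to -0.34). Their partner Arnt was at 23.8 and 16.96 CPM, a log2 ratio of -0.49, and Vhl, which marks the alpha subunits for destruction, at 9.93 and 7.67 CPM, a log2 ratio of -0.37. None of the 7 genes of this list differed by 1.5-fold. HIF alpha is controlled mainly through the stability of the protein, which was not measured. In the Pgf and Ankrd1 cluster Epas1 was at 113 and 109.6 CPM, 0.450 and 0.566 times its level in the other cells, while Hif1a was at 356 and 398 CPM, 1.31 and 1.43 times, and Cited2, which competes with HIF alpha for its coactivators, at 283 and 217 CPM, 7.56 and 5.21 times.

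Of 32 further hypoxia genes, 18 passed the minimum, 4 were at least 1.5-fold lower and 1 at least 1.5-fold higher in the cGAMP library, beside 7.41% and 4.53% of all genes. Of the lower genes, Vldlr passed the minimum in the PBS library alone. Their median log2 ratio of -0.13 lay close to that of all genes, -0.075. Lower were the lipoprotein receptor gene Vldlr, at 6.77 and 2.64 CPM with a log2 ratio of -1.36 (-1.62 to -1.11), the glycogen synthase gene Gys1, at 12.7 and 7.61 CPM with -0.74 (-0.89 to -0.58), Pgf, at 238 and 149.7 CPM with -0.67 (-0.70 to -0.63), and the collagen lysyl hydroxylase gene Plod1, at 144 and 96.2 CPM with -0.59 (-0.63 to -0.54). Higher was Hilpda, which inhibits the lipolysis of lipid droplets, at 70.9 and 107 CPM with 0.59 (0.54 to 0.64), and Angptl4, an inhibitor of lipoprotein lipase, was at 142 and 198 CPM with 0.48 (0.44 to 0.51). Both of these had lower cGAMP levels within the Pgf and Ankrd1 cluster, from 473 to 246 CPM for Hilpda and from 514 to 425 CPM for Angptl4, so their direction differed between that cluster and the whole library.

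The neighbouring pathways of glucose carbon were nearly level between the libraries. The 8 genes of the pentose phosphate pathway had a median log2 ratio of 0.026 and the 19 of pyruvate entry and the citric acid cycle one of 0.00072, and none of either list differed by 1.5-fold. The same lists were not raised in the Pgf and Ankrd1 cluster, where 0 of 7 and 0 of 18 tested genes were 2-fold higher in both libraries, and the median log2 ratio of the citric acid cycle list over the other cells was -0.35 in the PBS and -0.18 in the cGAMP library, against 1.55 and 1.19 for the glycolysis members. Of the known regulators of endothelial glycolysis, Klf2, a flow-induced factor that restrains it, was at 283 and 432 CPM, a log2 ratio of 0.61 (0.58 to 0.63), and Foxo1, a factor of endothelial quiescence, at 111 and 68.3 CPM, a log2 ratio of -0.70 (-0.75 to -0.65). Prkaa1, the catalytic subunit of AMP-activated kinase, was at 21.1 and 21.8 CPM. In the Pgf and Ankrd1 cluster Klf2 was at 137 and 249 CPM, 0.477 and 0.567 times its level in the other cells.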

How the data were processed

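The 33 members and all gene lists were chosen with earlier results of these data known. Per the methods and the submitters' processing notes, the authors aligned droplet libraries to mm10 with Cell Ranger 3.0.0, kept ECs with Seurat 3.1.1 after filters on genes per cell, mitochondrial share and Pecam1, and deposited, per cell, natural log values of counts scaled to a fixed sum plus 1. Reversing the natural log gave whole UMIs for 100% of values (within 0.01). UMIs were summed per library or cluster and scaled to CPM. Intervals were exact Poisson, binomial (Clopper-Pearson) or conditional binomial (Python 3.11.15, scipy 1.17.1), and no ratio was given with 3 or fewer UMIs on a side. Genes needed 5 CPM in either library or, for the cluster against the other cells, in the other cells of both libraries. With 1 library per condition no test was made.

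Clustering used Seurat 5.3.0 (R 4.3.3; 2500 variable genes, of which 1756 were left after removal of members, further hypoxia genes and 2-fold genes; integration; 30 components; resolution 0.5). A cluster was named if at least 3 markers of a class were raised 2-fold (5 CPM added), at least 1 of them was among its 10 leading genes and no other class had more raised. No doublets were removed. Shares and correlations used cells thinned to 5000 UMIs, by random draws with a fixed seed. Besides members, the text named the 10 genes most alike over cells, genes of fixed lists past 1.5-fold, isoenzymes and HIF subunits; Angptl4, Prkaa1 and the cluster level of Klf2 were chosen after their values were seen. Calculations were tested on simulated data. Promoters came from RefSeq. The alternatives tried were other scalings, cell filters, minimums and clusterings.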

Additional observations from a re-analysis of the deposited data

Results flagged for a closer look

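Pfkfb3 differed between the libraries in opposite directions in 2 clusters. Its log2 ratio of cGAMP over PBS was 1.43 (0.33 to 2.68) in the Igfbp5 and Ctsh cluster, from 8.66 to 23.3 CPM. That value rests on 9 PBS and 33 cGAMP UMIs. The log2 ratio was -0.92 in the Pgf and Ankrd1 cluster, from 95.5 to 50.5 CPM and from 225 and 110 UMIs. With 1 library per condition the difference between the clusters was not tested.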

How the results depend on the processing

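With 1 mouse per condition, nothing here separates the treatment from the mouse. No paired analysis was possible because each condition has 1 library and the labels give no replicate numbers. Leaving out the Pgf and Ankrd1 cluster, or its cells rich in leucocyte or mural UMIs, and counting genes over 5 CPM outside that cluster were chosen after seeing the data. The median log2 ratio of the hypoxia-response members kept its direction in all 12 alternatives, between -0.61 and -0.48, and no alternative put a member past 1.5-fold higher. The 27 members other than Aldoa, Gapdh, Pgk1, Pgam1, Eno1 and Ldha kept their direction in the 10 alternatives for the whole libraries. Rare members (Hk2, Mgarp, Ak4) are limited by depth.

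The glycolysis median was 0.0063 with median-of-ratios scaling and 0.0075 with cluster proportions held equal, and the glycolysis sum 0.0085 in both. That sum was -0.028 as a mean of per-cell CPM, -0.030 after thinning to 5000 UMIs, -0.059 without the deepest 5% of cells, -0.086 without proliferative cells and -0.12 among cells under 5% mitochondrial UMIs. The hypoxia-response sum was -0.38 with median-of-ratios scaling, -0.41 without the Pgf and Ankrd1 cluster, and -0.50 both without proliferative cells and among cells under 5% mitochondrial UMIs. The count of members at least 1.5-fold lower was 5 with median-of-ratios scaling and 13 among cells under 5% mitochondrial UMIs, and 19 members were at or under 80% of their PBS level, a looser limit. The share of all genes was not computed for these settings, so the counts have no background beside them.

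The log2 ratio of the hypoxia-response sum between the highest cluster and the other cells was 2.16 in the PBS and 1.44 in the cGAMP library. It became 0.75 and 0.60 at a resolution of 0.3, 1.97 and 1.34 at 1.2, 2.30 and 1.65 with the 2-fold genes kept, 0.86 and 0.93 without integration, and 1.96 in the PBS library with the members kept. The median of the members within the highest cluster of each setting became -0.34, -0.74, -0.13 and -0.66 at resolution 0.3, with the 2-fold genes kept, without integration and with the members kept. The count at least 1.5-fold lower within it became 7 of 32 at resolution 0.3, against 6.39% of all genes. Without integration it became 3 of 32, close to the 6.14% of all genes. Both settings give larger clusters. There Pfkfb3 turned to 0.091 at resolution 0.3, and without integration Pfkfb3 turned to 0.28, Bnip3 to 0.17 and Mgarp to 0.44. The correlation over cells became 0.16 in the PBS and 0.087 in the cGAMP library without the Pgf and Ankrd1 cluster, 0.28 and 0.21 with sums of log values, and 0.22 in the cGAMP library at 10000 UMIs. For these changes the cause was not tested.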
